A study of Mus musculus with 4 samples.

Results

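Cycling microglia are the resident immune cells of the brain captured while copying their DNA or dividing. They were picked out of single-cell RNA sequencing of mouse brain by detection alone. A cell barcode was kept with at least 500 UMIs (unique molecular identifiers, each marking 1 captured mRNA molecule), UMIs of at least 250 genes and less than 20% of its UMIs from the mitochondrial genome. It passed the microglial gate with a UMI of 3 or more of the 5 microglial genes P2ry12, Sall1, Gpr34, Siglech and Tmem119 and no UMI of the endothelial gene Cldn5. It passed the cycle gate with a UMI of 3 or more of the 6 cycle genes Mki67, Top2a, Cenpe, Prc1, Ccna2 and Cenpf. The levels of these genes therefore describe how the cells were chosen and support nothing else. The rule found 2783 cells among 60942 kept barcodes (63181 in the files), with 559 and 847 in Ms4a3 cKO libraries 1 and 2 and 647 and 730 in Flox control libraries 1 and 2. No barcode sequence recurred between libraries among these cells.

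The libraries came from the injured-side hemisphere of adult mice, collected on day 3 after tMCAO, a passing occlusion of the middle cerebral artery that models stroke with reperfusion. The 2 Ms4a3 cKO libraries stand for the genotype written Htr2b ERCre; Ms4a3-Cre, and the 2 Flox control libraries for Htr2b flox/flox littermates. Htr2b encodes the serotonin receptor 5-HT2B, and Ms4a3-Cre is known to act in granulocyte-monocyte progenitors of the bone marrow. All mice are labelled C57B6 and male and/or female, and tamoxifen was given before surgery with a washout of 3 days. The labels name both an ERCre and a Ms4a3-Cre allele and do not say which of them acted in microglia. No cell type was enriched before capture on the BD Rhapsody microwell system, after papain and DNase I digestion, red cell lysis and viability staining with Calcein-AM and Draq7. Separate animals are not stated for the 2 libraries of a genotype, so p-values here measure only the spread between these libraries.

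A dividing cell first copies its DNA in S phase and then separates the copies in mitosis. Replication genes are switched on by E2F transcription factors once cyclin-dependent kinases inactivate proteins of the retinoblastoma family, while most mitosis genes are held silent in resting cells by the DREAM complex, which binds their promoters at a cell cycle genes homology region (CHR). Microglia renew by division throughout life under signals through the receptor Csf1r, and they are known to proliferate in the first days after ischemia.

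The rule's own genes gave this picture. A UMI of Mki67, which codes for the Ki-67 antigen of dividing cells, was present in 98.8% of the cells on average over the libraries, Top2a in 87.9%, Ccna2 in 85.7%, Cenpe in 84.6%, Cenpf in 71.3% and Prc1 in 69.2%. P2ry12 was present in 99.3%, Gpr34 in 92.1%, Sall1 in 85.6%, Tmem119 in 47.2% and Siglech in 45.1%. All 6 cycle genes were detected in 46.7 and 47.6% of the cells of the Ms4a3 cKO libraries and in 48.1 and 48.5% of those of the Flox control libraries. At the edge of the gate, microglia with exactly 3 cycle genes (95 and 165 cells in Ms4a3 cKO, 103 and 111 in Flox control) had 435 and 497 CPM (counts per 1e6, a gene's UMIs over all UMIs of the summed cells) of Mki67 in Ms4a3 cKO and 443 and 462 CPM in Flox control. Cells just outside, with exactly 2 cycle genes (158 and 255 in Ms4a3 cKO, 170 and 231 in Flox control), had 230.5 and 261 CPM of Mki67 in Ms4a3 cKO and 192 and 205 CPM in Flox control.

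The cells held microglial genes that the rule did not use. Cx3cr1, the fractalkine receptor, stood at 1228 and 1496 CPM in the Ms4a3 cKO libraries and 2184 and 1936 CPM in the Flox control libraries, against 1734 and 2170.3 CPM in the Ms4a3 cKO libraries and 3093 and 2835 CPM in the Flox control libraries among microglia with none of the 6 cycle genes, here called non-cycling (2310 and 3429 cells in Ms4a3 cKO, 3959 and 2516 in Flox control). RNA of other cell types was present. In Ms4a3 cKO 61.0 and 51.0% and in Flox control 33.8 and 50.5% of cycling microglia carried UMIs of 2 or more of the 10 monocyte-macrophage markers, against 34.9 and 23.6% in Ms4a3 cKO and 15.9 and 25.6% in Flox control of the shallower non-cycling cells. The 10 monocyte-macrophage markers summed to 1030.3 and 1001 CPM in Ms4a3 cKO and 766 and 1275 CPM in Flox control, with none at 0 in any library; in cycling cells of a macrophage gate they summed to 5986 and 10560 CPM in Ms4a3 cKO and 2707 and 3834 CPM in Flox control. The 6 neutrophil markers summed to between 78.9 and 123 CPM and the 5 fibroblast markers to 3.7 and 20.9 CPM in Ms4a3 cKO and 96.4 and 338 CPM in Flox control. The Scrublet doublet caller marked 64 of the 2783 cells.

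Cycling microglia were the deeper cells. Their median was 12597 and 12210.0 UMIs in Ms4a3 cKO and 11531 and 12311.5 UMIs in Flox control, against 4657 and 4922 UMIs in Ms4a3 cKO and 5909 and 5073 UMIs in Flox control for non-cycling microglia. More RNA in a cell preparing to divide and an easier passage of the gate by a deeper cell cannot be told apart. Results are therefore given also for cells of at least 8000 UMIs, where the medians were 12764 to 13475 UMIs in cycling and 9977 to 10578 UMIs in non-cycling cells. This kept most cycling cells (469 and 682 in Ms4a3 cKO, 503 and 597 in Flox control). It kept only the deeper minority of non-cycling cells (434 and 732 in Ms4a3 cKO, 980 and 569 in Flox control). Applying both gates to cells thinned to 2000 UMIs left 70 and 116 cycling cells in Ms4a3 cKO and 150 and 126 in Flox control. Summed over cells, the 2 Ms4a3 cKO libraries were closest to each other (Pearson's r of log2 CPM across genes 0.985), and Flox control 1 stood farthest from the rest (r of 0.940 and 0.946 with Ms4a3 cKO and 0.952 with Flox control 2).

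The cells inside the gate can be described by how many of its 6 cycle genes they showed. These genes chose the cells and act mostly late in the cycle, so a mitosis signal that is larger with more of them follows from the rule and says nothing of an order of phases. Signals were taken as the summed CPM of 36 S phase genes and of 40 mitosis genes, neither list holding a gene of the rule. In cells with 3 of the 6 cycle genes the S phase sum was 3843 and 3397 CPM in Ms4a3 cKO and 4003 and 3897 CPM in Flox control, above the mitosis sum of 1935 and 1847 CPM in Ms4a3 cKO and 2003 and 1958 CPM in Flox control. In cells with all 6 the mitosis sum was 10484 and 10761 CPM in Ms4a3 cKO and 10918 and 10495 CPM in Flox control, above the S phase sum of 4223 and 4359.97 CPM in Ms4a3 cKO and 4172 and 4386 CPM in Flox control. With 4 or 5 cycle genes the S phase sum lay between 4449 and 5740.4 CPM over the libraries. Cells with 2 cycle genes, just outside, had S phase sums of 2711 and 2485 CPM in Ms4a3 cKO and 2653 and 2587 CPM in Flox control, against 684 and 679 CPM in Ms4a3 cKO and 655 and 675 CPM in Flox control for non-cycling cells. Median depth also moved with the count of cycle genes, at 13785 and 13858 UMIs in Ms4a3 cKO and 12650.0 and 13567 UMIs in Flox control for cells with all 6 genes, and 11526 and 10224 UMIs in Ms4a3 cKO and 9229 and 10669 UMIs in Flox control for cells with 3.

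**Figure D1:**
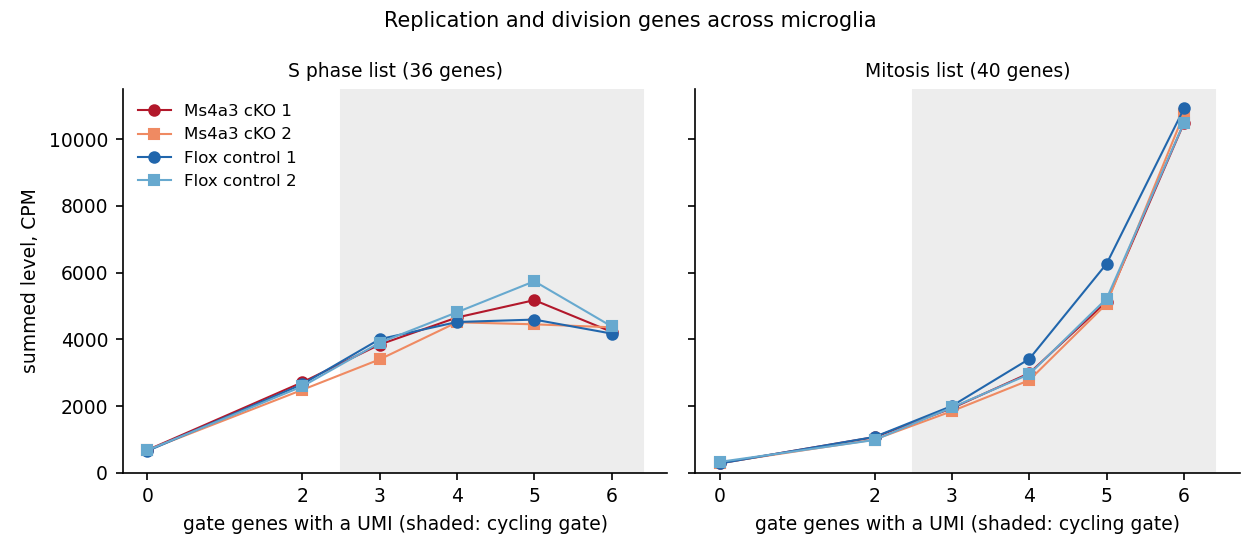
Summed CPM of 36 S phase genes and of 40 mitosis genes (vertical axis, linear scale) by the number of the 6 cycle genes detected in a microglial cell (horizontal axis), with 1 line per library. With all 6 genes the mitosis sum lies between 10484 and 10918 CPM and the S phase sum between 4172 and 4386 CPM, a description only, since the axis counts the genes that chose the cells.

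No difference between genotypes in the balance of the phases was resolved. Over all cells of the gate, the log2 ratio of the S phase to the mitosis sum was -0.68 and -0.77 in Ms4a3 cKO and -0.86 and -0.66 in Flox control. The groups overlapped, the means differed by 0.04, and leaving out Ms4a3 cKO 1 or Flox control 1 turned its sign (-0.00698 and -0.06). The exact permutation test over libraries, two-sided, gave p = 1.0, where 2 against 2 libraries cannot give less than 0.33. After each cell was thinned to 2000 UMIs, S phase UMIs outnumbered mitosis UMIs in 34.2 and 32.1% of cycling microglia in Ms4a3 cKO and in 28.3 and 35.0% in Flox control.

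The share of microglia in cycle also showed no difference between genotypes that the libraries could resolve. At 2000 UMIs per cell, 10.2% (exact binomial 95% interval 9.24 to 11.3) and 10.1% (9.26 to 10.9) of microglial-gate cells passed the cycle gate in Ms4a3 cKO, and 7.88% (7.17 to 8.64) and 11.7% (10.7 to 12.7) in Flox control. These intervals cover counting error only. The Flox control libraries lay below and above both Ms4a3 cKO libraries, the means differed by 0.38 percentage points, and the exact permutation p was 1.0. The difference was -1.51 points without Flox control 1 and 2.27 points without Flox control 2. Without thinning, the shares were 16.1 and 16.2% in Ms4a3 cKO and 12.05 and 17.8% in Flox control. Cells that met the macrophage genes of the gate described below passed the cycle gate less often in most libraries. At 2000 UMIs per cell, 0.889 and 2.01% of them passed in Ms4a3 cKO and 8.88 and 1.20% in Flox control. In Flox control 1 this macrophage share (8.88%) lay above the microglial share (7.88%). As a background for the gate, cells with markers of oligodendrocytes, a type that does not divide, passed it unthinned in 0.266 and 0.65% in Ms4a3 cKO and 2.32 and 2.05% in Flox control, at median depths of 3324.5 and 3407 UMIs in Ms4a3 cKO and 5912 and 4863.5 UMIs in Flox control. Cells with markers of neutrophils, which do not divide either once mature, passed in 0.182 and 5.94% (2 of 1100 and 12 of 202 cells) in Ms4a3 cKO and 5.10 and 1.85% (8 of 157 and 5 of 271) in Flox control, at median depths of 2331 and 1708.5 UMIs in Ms4a3 cKO and 2163 and 1596 UMIs in Flox control.

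**Figure D2:**
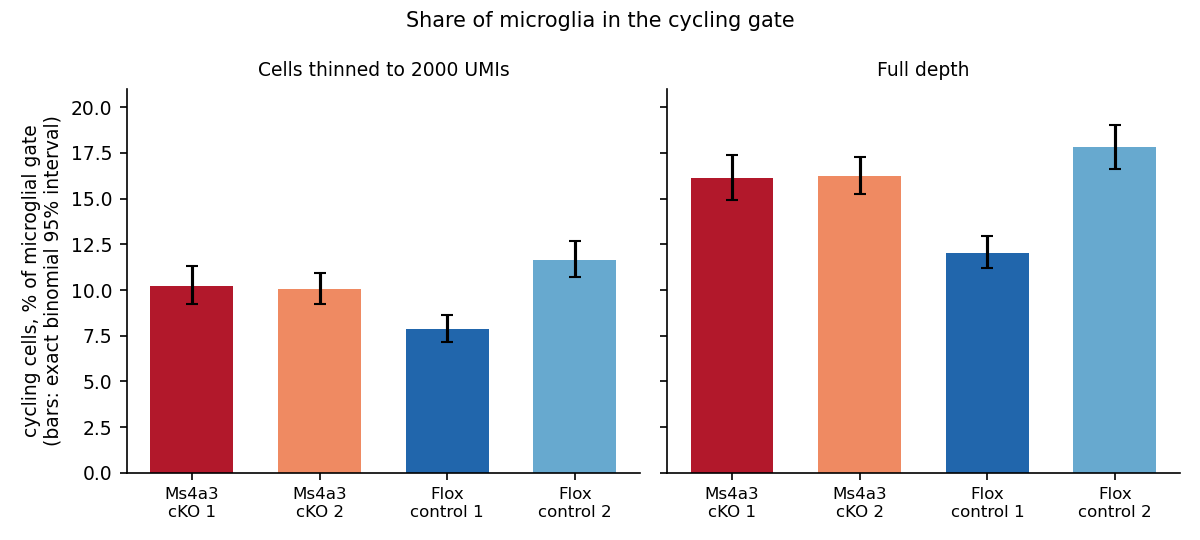
Percent of microglial-gate cells that passed the cycle gate (vertical axis), at 2000 UMIs per cell (left) and at full depth (right). Each library has 1 bar with its exact binomial 95% interval. At 2000 UMIs the 2 Ms4a3 cKO libraries sit at 10.2 and 10.1%, between the Flox control libraries at 7.88 and 11.7%. At full depth they sit at 16.1 and 16.2%, between 12.05 and 17.8%.

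Cycling microglia were next set against non-cycling microglia of the same libraries, with the library as a block (edgeR's quasi-likelihood test on UMIs summed per library, Benjamini-Hochberg adjusted over all genes, threshold 0.05). Of 12469 genes tested, 7325 passed (58.7%), 3643 higher (29.2%) and 3682 lower (29.5%) in cycling cells, and the median log2 fold change over all genes was -0.03. With this share of genes called, a call by itself singles out little, and sizes carry more than counts. In cells of at least 8000 UMIs 5557 of 11606 genes passed (47.9%; 23.9% higher, 24.0% lower), and 4592 genes passed the same way in both fits while 95 passed in opposite directions. The rule chose cells by cycle genes, so higher levels of further cycle genes describe what the gate caught.

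Mitosis genes made the largest difference. Of 40 mitosis genes, all tested, 39 were higher in cycling microglia and 0 lower, with a median log2 fold change of 5.69 (5.72 at 8000 UMIs or more). Hmmr, a receptor for hyaluronan that also acts on the mitotic spindle, stood at 333 and 327 CPM in the Ms4a3 cKO libraries and 328 and 328 CPM in the Flox control libraries among cycling cells, against 0.847 and 0.994 CPM in the Ms4a3 cKO libraries and 0.93 and 1.90 CPM in the Flox control libraries among non-cycling cells. No library overlapped, and the log2 fold change was 8.20 ± 0.14 (SE, adjusted p = 7.36e-10). Ccnb1, cyclin B1, which drives entry into mitosis, stood at 197 and 176 CPM in the Ms4a3 cKO libraries and 188 and 171 CPM in the Flox control libraries among cycling cells, against 0.847 and 1.19 CPM in the Ms4a3 cKO libraries and 0.543 and 1.18 CPM in the Flox control libraries among non-cycling cells. Bub1, a kinase of the spindle checkpoint, had 177 to 275 CPM against 1.08 to 1.83 CPM over the libraries, and Tpx2, a spindle assembly factor, 398 to 436 CPM against 4.38 to 4.85 CPM. The exception was Pttg1, securin, named here because it alone in the list missed the threshold: its log2 fold change was -0.09 (adjusted p = 0.416) over all cells and 0.31 (adjusted p = 0.00609) in cells of at least 8000 UMIs.

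The promoters of these genes share letters that the rule did not use. In windows from 250 bases before to 50 bases after the annotated start (RefSeq, GRCm38.p6; 34 of the 40 mitosis genes had one and 1 of them a second), a CHR (TTTGAA or TTCGAA, either strand) was present in 77.1% of mitosis windows (27 of 35), against 14.4% of the windows of all genes tested and 19.2% of all windows. CCAAT, the box bound by NF-Y, was present in 71.4% against 37.9% of windows of tested genes. Both together were present in 65.7% against 6.0%. Of the S phase windows, 12.5% held a CHR, near the value for tested genes, while 34.4% held one of 4 E2F sequences (TTTCCCGC, TTTGGCGC, TTTCGCGC or TTTGCCGC, either strand), against 8.57% of mitosis windows and 3.93% of windows of tested genes. A match is a description of letters, not a bound site, and no match says only that these letters are absent from the window. The 5 windows shown span the range: Top2a of the gate with 4 CHR and 6 CCAAT matches, Hmmr and Bub1 with 1 CHR each just after the start, Ccnb1 with CCAAT boxes and no CHR match, and the S phase gene Clspn with an E2F match. They are written 5′ to 3′ on the gene's strand, and capitals mark every CHR, CCAAT or E2F match on either strand; a box on the opposite strand appears as its reverse complement.
Top2a, chr11:99024140-99024439, minus strand: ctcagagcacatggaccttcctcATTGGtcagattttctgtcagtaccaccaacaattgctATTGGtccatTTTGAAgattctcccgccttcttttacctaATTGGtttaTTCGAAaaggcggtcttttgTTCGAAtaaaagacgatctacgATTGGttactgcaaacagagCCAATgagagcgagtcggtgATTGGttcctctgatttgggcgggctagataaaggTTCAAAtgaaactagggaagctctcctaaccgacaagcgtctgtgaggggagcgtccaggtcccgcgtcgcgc
Hmmr, chr11:40733388-40733687, minus strand: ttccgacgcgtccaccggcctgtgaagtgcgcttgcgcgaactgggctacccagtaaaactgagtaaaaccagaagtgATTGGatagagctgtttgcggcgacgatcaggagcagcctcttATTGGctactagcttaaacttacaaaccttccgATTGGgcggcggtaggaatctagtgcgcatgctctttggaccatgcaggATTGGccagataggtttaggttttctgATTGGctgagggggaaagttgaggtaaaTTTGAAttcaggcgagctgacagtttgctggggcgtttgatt
Bub1, chr2:127831810-127832109, minus strand: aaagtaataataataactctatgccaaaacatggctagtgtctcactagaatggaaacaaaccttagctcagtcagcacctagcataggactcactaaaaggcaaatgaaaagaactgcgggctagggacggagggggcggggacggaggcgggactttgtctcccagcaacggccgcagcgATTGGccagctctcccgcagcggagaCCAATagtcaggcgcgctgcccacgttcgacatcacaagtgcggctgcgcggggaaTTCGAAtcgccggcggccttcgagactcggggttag
Ccnb1, chr13:100786437-100786736, minus strand: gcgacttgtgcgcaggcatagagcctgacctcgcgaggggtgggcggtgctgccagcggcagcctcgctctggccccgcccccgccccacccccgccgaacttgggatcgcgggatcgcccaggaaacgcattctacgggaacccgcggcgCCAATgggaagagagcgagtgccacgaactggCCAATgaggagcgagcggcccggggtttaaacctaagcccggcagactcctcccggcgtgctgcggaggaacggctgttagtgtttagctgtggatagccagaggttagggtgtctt
Clspn, chr4:126556730-126557029, plus strand: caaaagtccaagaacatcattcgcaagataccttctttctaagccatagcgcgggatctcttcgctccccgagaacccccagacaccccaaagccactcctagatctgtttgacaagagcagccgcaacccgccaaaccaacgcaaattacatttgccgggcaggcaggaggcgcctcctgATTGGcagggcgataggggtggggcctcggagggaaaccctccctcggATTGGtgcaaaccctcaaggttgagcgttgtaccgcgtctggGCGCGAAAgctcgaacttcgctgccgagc

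S phase, repair and chromatin genes followed at smaller folds. Of 36 S phase genes, all tested, 35 were higher and 0 lower, with a median log2 fold change of 3.12 (2.73 at 8000 UMIs or more). Rrm2, the regulated subunit of ribonucleotide reductase, which makes deoxynucleotides, stood at 279 and 279 CPM in the Ms4a3 cKO libraries and 321 and 332 CPM in the Flox control libraries among cycling cells, against 3.00 and 2.49 CPM in the Ms4a3 cKO libraries and 1.74 and 2.55 CPM in the Flox control libraries among non-cycling cells (log2 fold change 7.04 ± 0.12, SE, adjusted p = 7.99e-10). Its constant partner Rrm1 differed by 3.73 on the same scale. Clspn, claspin, which relays replication stress to the kinase Chk1, had 69.0 to 98.3 CPM against 1.82 to 3.18 CPM, and Uhrf1, which brings DNA methylation to new strands, differed by 4.45. All 16 DNA repair genes tested were higher, with a median of 3.14, among them the resection nuclease Exo1 (5.04). Of 13 tested histone and chromatin genes (26 listed, under older and newer names), 12 were higher and 0 lower, including the histone chaperone Asf1b (5.06), the H3K27 methyltransferase Ezh2 (2.36) and the histone variant H2ax (3.75). Most replication-dependent histone mRNAs lack a poly(A) tail.

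**Figure D3:**
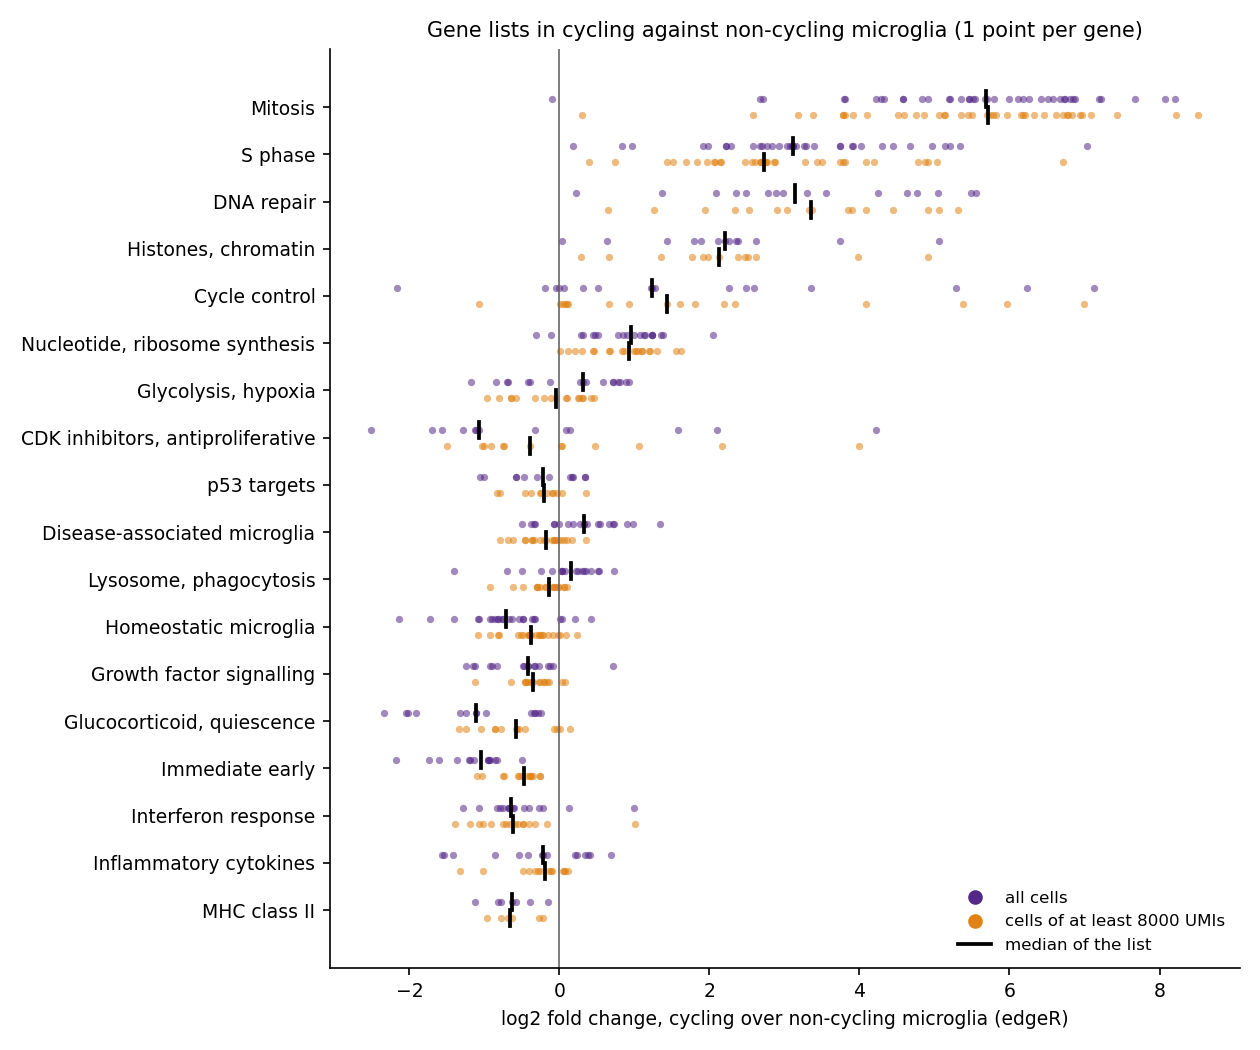
Log2 fold change of cycling over non-cycling microglia (horizontal axis) for the tested genes of each list (rows), over all cells and in cells of at least 8000 UMIs. Mitosis genes have a median of 5.69 and S phase genes of 3.12 over all cells, while the medians of the homeostatic, glucocorticoid and immediate early lists lie below 0.

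Genes that run the cycle split by role. Of 17 cycle control genes, 11 were higher and 2 lower (median 1.23). The largest rises were in the E2F family members that shut replication genes off late in S phase: E2f7 had 36.6 to 55.0 CPM against 0.199 to 0.458 CPM (log2 fold change 7.13), and E2f8 differed by 6.23. Foxm1, which activates mitosis genes, differed by 5.28, and the activator E2f2 by 2.27. Ccnd3, a D-type cyclin of the kind that starts the cycle, ran the other way. It stood at 32.1 and 31.3 CPM in the Ms4a3 cKO libraries and 9.58 and 18.6 CPM in the Flox control libraries among cycling cells, against 163 and 139.97 CPM in the Ms4a3 cKO libraries and 36.5 and 91.8 CPM in the Flox control libraries among non-cycling cells. The gene was lower in every library (-2.16 ± 0.08 in log2, SE, adjusted p = 4.33e-08), and differed by -1.07 at 8000 UMIs or more. Ccnd1, named for the contrast after its values were seen, was higher by 0.51 over all cells (adjusted p = 0.00192) and differed by 0.08 at 8000 UMIs or more (adjusted p = 0.313).

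Brakes on the cycle were mostly lower. Of 13 tested genes for inhibitors of cyclin-dependent kinases and antiproliferative factors (14 listed), 3 were higher and 8 lower, with a median of -1.07 (-0.39 at 8000 UMIs or more). Cdkn2c, the inhibitor p18 INK4c and a known E2F target, ran the other way at 91.3 and 102 CPM in the Ms4a3 cKO libraries and 203 and 99.9 CPM in the Flox control libraries among cycling cells, against 5.39 and 5.82 CPM in the Ms4a3 cKO libraries and 9.69 and 6.09 CPM in the Flox control libraries among non-cycling cells (log2 fold change 4.22 ± 0.08, SE, adjusted p = 9.68e-10). Btg2, an antiproliferative partner of the mRNA deadenylase, had 239 to 353 CPM against 819 to 977 CPM (-1.69), and its relative Btg1 differed by -1.11. Mxd4, an antagonist of Myc, differed by -1.57, and Klf4, a factor that restrains division in many cell types, by -2.51 (-1.03 at 8000 UMIs or more). Klf4 also varied among libraries, with 78.6 and 72.7 CPM in the Ms4a3 cKO libraries and 55.0 and 108 CPM in the Flox control libraries among cycling cells, against 1043 and 429 CPM in the Ms4a3 cKO libraries and 192 and 466 CPM in the Flox control libraries among non-cycling cells. Of 12 tested p53 target genes (14 listed), 2 were higher and 6 lower (median -0.22). Over all cells and at 8000 UMIs or more, 3 of these calls held, all lower, among them Trp53inp1 (-1.05). None of the lower calls held with both gates applied to thinned cells. There 2 of 11 tested were higher and 0 lower (median -0.13), and Trp53inp1 differed by -0.58 without passing.

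Genes that supply material for growth were higher. Of 20 genes for nucleotide and ribosome synthesis, all tested, 18 were higher and 0 lower in cycling cells, over all cells and again at 8000 UMIs or more (medians 0.95 and 0.93). With both gates on thinned cells, 8 of 17 tested were higher and 0 lower (median 0.63). Ran, the GTPase of nuclear transport and spindle assembly, stood at 739 and 683 CPM in the Ms4a3 cKO libraries and 939 and 688 CPM in the Flox control libraries among cycling cells, against 178 and 159.6 CPM in the Ms4a3 cKO libraries and 247 and 177 CPM in the Flox control libraries among non-cycling cells (log2 fold change 2.05 ± 0.06, SE, adjusted p = 1.10e-08). The purine enzyme Paics differed by 1.24, the nucleoside diphosphate kinase Nme1 by 1.14 and the mitochondrial folate enzyme Mthfd2 by 1.12. Glycolysis and hypoxia genes did not move one way: of 17 tested (18 listed), 7 were higher and 5 lower. Pgk1 (0.89) and Pkm (0.92), enzymes of the later steps, were higher, and Hk2, the inducible hexokinase of the first step, was lower (-1.17).

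Homeostatic microglial genes outside the rule were lower in cycling cells. Of 24 tested, 20 were lower and 2 higher (median -0.72, or -0.38 with 19 lower and 1 higher at 8000 UMIs or more). Mertk, a receptor for the uptake of dying cells, stood at 252 and 262 CPM in the Ms4a3 cKO libraries and 198 and 270.2 CPM in the Flox control libraries among cycling cells, against 778 and 761 CPM in the Ms4a3 cKO libraries and 444 and 731 CPM in the Flox control libraries among non-cycling cells. Its log2 fold change was -1.40 ± 0.07 (SE, adjusted p = 5.92e-07), and -0.92 at 8000 UMIs or more. The transporters Slco2b1 (-1.08) and Slc2a5 (-2.13) were lower too. Golm1, named because it was the gene higher in both fits, differed by 0.21 and by 0.24 at 8000 UMIs or more. Genes of the rule ran alike as a description: P2ry12 stood at 598 and 725 CPM in Ms4a3 cKO and 735 and 562 CPM in Flox control among cycling cells, against 1237 and 1432 CPM in Ms4a3 cKO and 1850.3 and 1895 CPM in Flox control among non-cycling cells. Those levels depend on the rule and on depth.

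Growth factor signalling genes were lower as well, at 12 of 17 tested (18 listed), with 1 higher and a median of -0.42. Csf1r, the receptor on which microglial survival depends, differed by -0.89 (-0.42 at 8000 UMIs or more), the cytokine Tgfb1 by -1.24, and Dusp6, a phosphatase induced by and acting on ERK, by -0.83. All 14 genes of the glucocorticoid and quiescence list were lower (median -1.12), 10 of them in both fits. These included Sult1a1 (-2.04), the glucocorticoid-induced leucine zipper Tsc22d3 (-1.25) and the insulin receptor substrate Irs2 (-1.12). All 14 immediate early and dissociation-related genes were lower in both fits, with medians of -1.05 and -0.47, among them Jun (-1.21), Junb (-1.14) and Nr4a1 (-1.19). Further genes with the largest falls were the lipid flippase Atp8a2 (-2.74) and the histone demethylases Kdm6b (-1.84) and Kdm5b (-1.78).

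**Figure D4:**
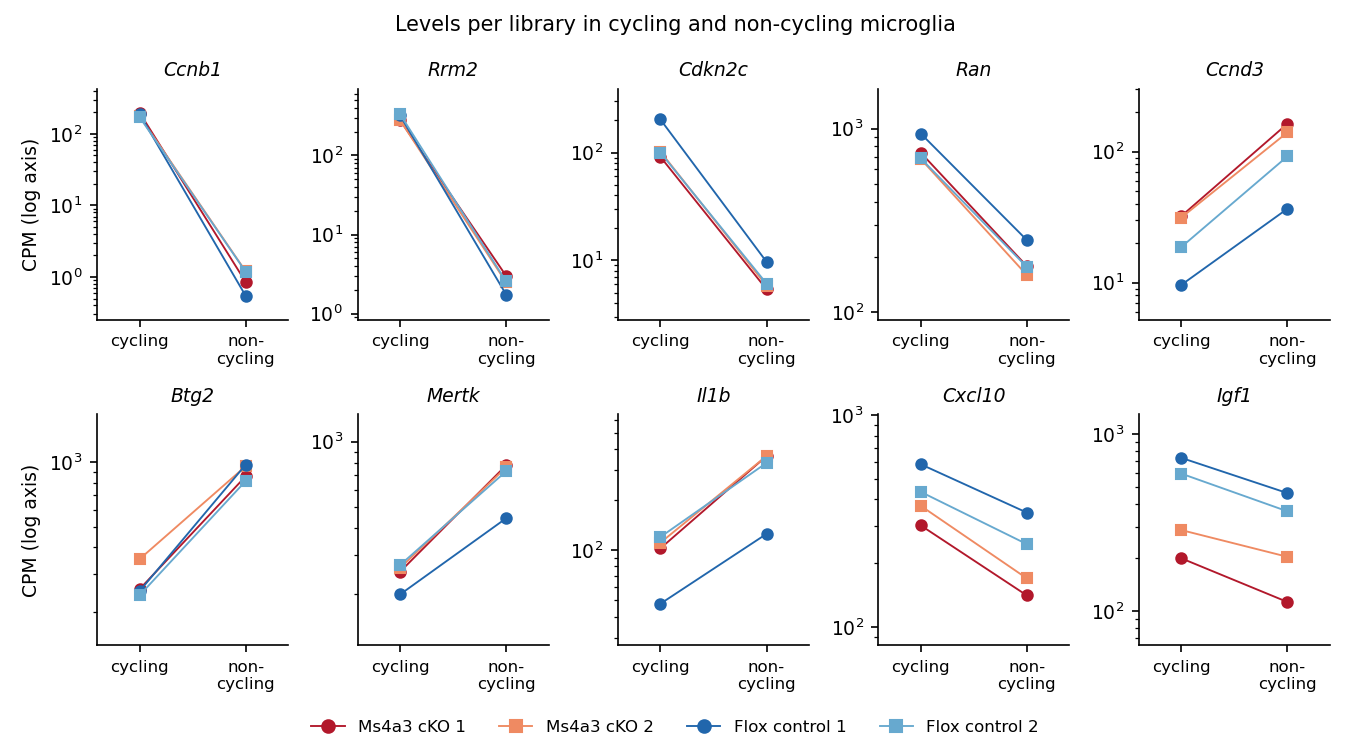
CPM per library (log scale) of selected genes in cycling and in non-cycling microglia, with 1 point per library. Ccnb1 and Rrm2 lie between 171 and 332 CPM in cycling cells, while Ccnd3, Mertk and Btg2 lie lower in cycling than in non-cycling cells of every library.

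Injury-response genes differed with how depth was treated. Of 21 tested disease-associated microglia genes (22 listed), 13 were higher and 3 lower over all cells (median 0.33), but 2 were higher and 12 lower at 8000 UMIs or more (median -0.18), and 4 were called in opposite directions. With both gates applied to cells thinned to 2000 UMIs, 12 were higher and 1 lower (median 0.34; 16.4% of all genes higher and 15.7% lower in that fit). Spp1, osteopontin, was higher over all cells and at 8000 UMIs or more: it stood at 13994 and 12173 CPM in the Ms4a3 cKO libraries and 11140.4 and 16012 CPM in the Flox control libraries among cycling cells, against 5538 and 5209 CPM in the Ms4a3 cKO libraries and 4476 and 6449.9 CPM in the Flox control libraries among non-cycling cells (log2 fold change 1.34), and differed by 0.35 at 8000 UMIs or more (adjusted p = 1.56e-06). Lpl, lipoprotein lipase, differed by 0.90 and by 0.16. Igf1, a growth factor, and Fabp5, a fatty acid carrier, changed sign, at 0.71 and 0.66 over all cells and -0.21 and -0.34 at 8000 UMIs or more, and were higher by 1.00 and 0.71 in the thinned cells. Lysosome and phagocytosis genes did likewise: 9 of 18 were higher and 4 lower over all cells, 4 were lower and 0 higher in both this fit and that at 8000 UMIs or more, 2 changed sign there, and in the thinned cells 6 were higher and 2 lower. The lysosomal membrane protein Cd68 differed by 0.73 over all cells, by 0.10 at 8000 UMIs or more (adjusted p = 0.09) and by 0.80 in the thinned cells, while the protease Ctss was lower in all 3 (-0.70, -0.48 and -0.58).

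Inflammatory genes were mostly lower. Of 16 tested interferon response genes (17 listed), 12 were lower and 1 higher (median -0.64), and these 13 calls held in both fits. The 1 higher was Cxcl10, a chemokine for T cells, which stood at 301 and 373 CPM in the Ms4a3 cKO libraries and 585 and 434 CPM in the Flox control libraries among cycling cells, against 141 and 169 CPM in the Ms4a3 cKO libraries and 346 and 246 CPM in the Flox control libraries among non-cycling cells (log2 fold change 0.99 ± 0.08, SE, adjusted p = 9.63e-06). Ifitm3 (-0.47) and Oasl2 (-0.79), which restrict viruses, were lower. With both gates applied to thinned cells, 2 of 14 interferon genes were lower and Ifitm3 differed by 0.24. Of 7 MHC class II genes, 5 were lower, among them Cd74 (-1.12) and H2-Aa (-0.78), and 3 were lower in both fits. In the thinned cells none of the 5 tested was called, with Cd74 at -0.66 (adjusted p = 0.121) and H2-Aa at -0.03 (adjusted p = 0.951). Of 15 inflammatory cytokine genes, 4 were higher and 7 lower, and 1 and 5 in both fits. Il1b stood at 102 and 111 CPM in the Ms4a3 cKO libraries and 47.8 and 119.7 CPM in the Flox control libraries among cycling cells, against 364 and 365 CPM in the Ms4a3 cKO libraries and 125 and 332 CPM in the Flox control libraries among non-cycling cells, with no overlap (log2 fold change -1.57 ± 0.07, SE, adjusted p = 3.16e-07), and Il1a differed by -1.42. Neutrophils also carry Il1b, and the neutrophil markers, none of the 6 at 0 apart from Retnlg in non-cycling cells of Flox control 2, summed to 123 and 97.4 CPM in Ms4a3 cKO and 118 and 78.9 CPM in Flox control among cycling cells, against 504 and 194 CPM in Ms4a3 cKO and 173 and 223 CPM in Flox control among non-cycling cells. Their part in the Il1b difference was not tested.

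The design's own question was the effect of genotype, taken here inside cycling microglia. Htr2b itself stood at 159.9 and 130.2 CPM in Ms4a3 cKO and 61.8 and 130.2 CPM in Flox control. The libraries overlapped, and the log2 fold change was 0.55 ± 0.31 (SE, adjusted p = 0.601). Without Flox control 2 it was 1.07 (adjusted p = 0.00246), with the lone Flox control library assumed to vary like the Ms4a3 cKO pair, and without Flox control 1 it was 0.16 (adjusted p = 0.688). Counts over the whole gene do not show whether a floxed stretch was removed, so this value checks the label only in part. Ms4a3 was at 0.144 CPM, 1 UMI, in Ms4a3 cKO 1 and at 0 in the other libraries, and was not tested. Htr2b was higher in cycling than in non-cycling microglia over all cells, by 1.26 ± 0.10 in log2 (SE, adjusted p = 9.62e-06) and 0.28 at 8000 UMIs or more (adjusted p = 0.00498).

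No gene passed the genotype test. edgeR called 0 of 11875 genes (0.0%), with 1079 at an unadjusted p under 0.05, and DESeq2 on the same sums called 132 of 11017 (1.2%), 62 higher (0.563%) and 70 lower (0.635%) in Ms4a3 cKO. The count turned on the Flox control libraries: edgeR called 237 genes without Flox control 1 and 3015 without Flox control 2, and 0 without either Ms4a3 cKO library. Of the 316 tested genes of the 18 biological lists edgeR called 0, with 64 at an unadjusted p under 0.05, and DESeq2 called 28. The DESeq2 calls were 0 of 40 mitosis and 0 of 36 S phase genes, 6 of 14 glucocorticoid and quiescence genes, 5 of 21 disease-associated genes, 4 of 6 MHC class II genes, 4 of 14 immediate early genes and 3 of 16 interferon response genes, the rest spread over 5 further lists with overlapping members. Median log2 fold changes were -0.13 over the 40 mitosis genes and -0.11 over the 36 S phase genes, against 0.00 over all genes. Bub1, of the mitosis genes with the smallest p, stood at 177 and 185 CPM in Ms4a3 cKO and 275 and 216 CPM in Flox control (-0.52, adjusted p = 0.543). Ccnd3 stood at 32.1 and 31.3 CPM in Ms4a3 cKO and 9.58 and 18.6 CPM in Flox control (1.11, adjusted p = 0.427), and Cdkn2c at 91.3 and 102 CPM in Ms4a3 cKO and 203 and 99.9 CPM in Flox control (-0.75, adjusted p = 0.582).

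Some genes separated the 4 libraries by genotype without passing edgeR's test. The 5 with the smallest p by the rule, each at an adjusted p of 0.229 by edgeR, were all called by DESeq2 on the same sums, at adjusted p between 3.51e-27 and 3.58e-08. They included Fkbp5, a glucocorticoid-induced chaperone, at 638 and 585 CPM in Ms4a3 cKO and 206 and 227 CPM in Flox control, a log2 fold change of 1.43 ± 0.14 (SE). Hgsnat, a lysosomal acetyltransferase, stood at 284 and 269 CPM in Ms4a3 cKO and 67.6 and 91.3 CPM in Flox control. Ms4a6c, a membrane protein of myeloid cells, stood at 1536 and 1448 CPM in Ms4a3 cKO and 521 and 573 CPM in Flox control. These 3 genes did not overlap between the genotypes, and neither did Il15ra and H2-Aa, given next. Their choice by smallest p favours that, and the share of all tested genes without overlap was not counted. Full separation of 2 against 2 libraries has an exact permutation p no lower than 0.33, so it says little by itself. Il15ra, the receptor chain that presents interleukin 15, stood at 72.6 and 65.6 CPM in Ms4a3 cKO and 20.5 and 19.5 CPM in Flox control. The fifth, H2-Aa, a chain of MHC class II, stood at 2.02 and 3.40 CPM in Ms4a3 cKO and 139.7 and 66.8 CPM in Flox control, a log2 fold change of -5.31 ± 0.54 (SE), and its partner H2-Eb1 differed by -5.64 (adjusted p = 0.246). Dendritic cells and macrophages also carry these chains. The 6 dendritic markers summed to 4.17 and 4.95 CPM in Ms4a3 cKO, with Cd209a and Clec9a at 0 in both libraries, and to 6.17 and 9.43 CPM in Flox control, with none at 0, and the monocyte-macrophage sums given above overlapped between the genotypes. Their part was not tested. The 6 MHC class II genes tested had a median of -2.86 and the 16 interferon response genes a median of -1.11, with Rsad2, an antiviral enzyme, at 24.2 and 24.8 CPM in Ms4a3 cKO and 90.8 and 57.3 CPM in Flox control.

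**Figure D5:**
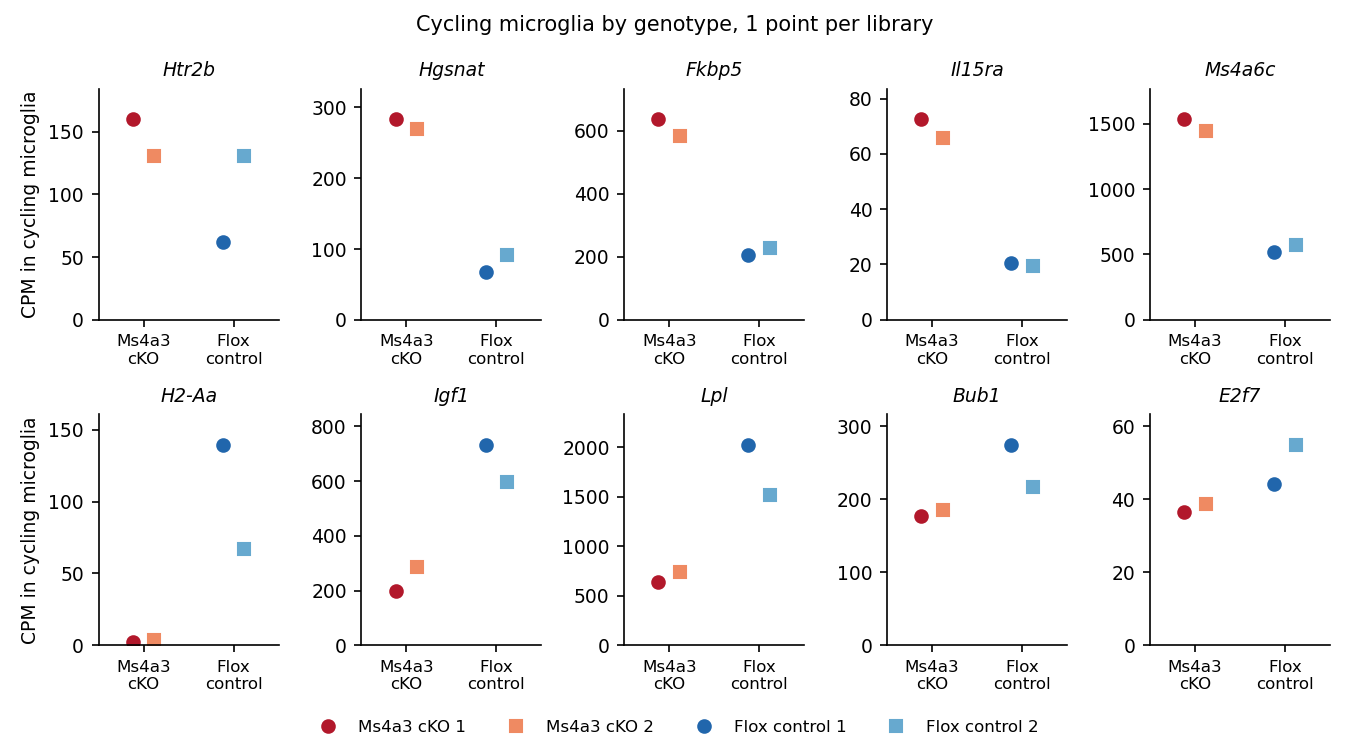
CPM per library (linear scale) of selected genes in cycling microglia, Ms4a3 cKO left and Flox control right. Fkbp5 lies at 638 and 585 CPM in Ms4a3 cKO and 206 and 227 CPM in Flox control, H2-Aa at 2.02 and 3.40 CPM in Ms4a3 cKO and 139.7 and 66.8 CPM in Flox control, and none of the genes passed the edgeR test.

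Of the injury-response genes, Igf1 stood at 199 and 287 CPM in Ms4a3 cKO and 734 and 598 CPM in Flox control (-1.54, adjusted p = 0.369), and Lpl at 635 and 737 CPM in Ms4a3 cKO and 2026 and 1514 CPM in Flox control (-1.46, adjusted p = 0.369). RNA of other cells differed between libraries too: the fibroblast gene Col1a1 stood at 0.432 and 2.82 CPM in Ms4a3 cKO and 36.7 and 78.6 CPM in Flox control, and the summed fibroblast and oligodendrocyte markers were 3.7 and 20.9 CPM and 137 and 300.3 CPM in Ms4a3 cKO, against 96.4 and 338 CPM and 130.4 and 532 CPM in Flox control. Their part in the differences above was not tested.

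Whether genotype acted differently in cycling than in non-cycling microglia was tested directly. edgeR called 0 of 12469 genes (0.0%), with 1345 at an unadjusted p under 0.05, and DESeq2 called 29. Without Ms4a3 cKO 1, Ms4a3 cKO 2, Flox control 1 or Flox control 2 edgeR called 3, 36, 8 and 88. The 5 genes with the smallest p by the rule, each at an adjusted p of 0.0894, included Atp1b2 (-1.83 in log2, the effect in cycling minus that in non-cycling cells), Lox (-3.83), Cald1 (-1.52) and Upk1b (2.61). Atp1b2 codes for a sodium pump subunit of astrocytes, and Lox and Cald1 are genes of matrix-forming and contractile cells.

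Cycling macrophages served as the nearest dividing relatives. Their gate asked for at most 1 of the 5 microglial genes, 3 or more of the 7 genes Ccr2, Ly6c2, Fn1, Arg1, Chil3, Thbs1 and Ms4a7, and the same cycle gate, and it found 56 and 48 cells in Ms4a3 cKO and 327 and 96 in Flox control. Of 11486 genes, 1341 differed (11.7%), but identity genes follow from the gates and only cycle lists were read. Over all genes, 3063 of 11486 had an unadjusted p under 0.05 by edgeR, and DESeq2 called 1827 of 12535 (14.6%). Mitosis genes gave 0 calls of 40 by edgeR (8 at an unadjusted p under 0.05, and 2 calls by DESeq2). Their median was 0.19 in log2, cycling microglia over cycling macrophages (0.01 over all genes). Of 36 S phase genes 4 were higher and 0 lower in microglia (6.18% and 5.49% of all genes), at a median of 0.32. Clspn stood at 98.3 and 93.2 CPM in the Ms4a3 cKO libraries and 69.0 and 86.6 CPM in the Flox control libraries in cycling microglia, against 65.0 and 73.8 CPM in the Ms4a3 cKO libraries and 44.0 and 57.6 CPM in the Flox control libraries in cycling macrophages (0.57, adjusted p = 0.0261), and Uhrf1 differed by 0.75 (adjusted p = 0.0156); both were picked from the 4 after their values were seen. Both lost the call without Ms4a3 cKO 1, Ms4a3 cKO 2 or Flox control 2, at adjusted p up to 0.127 for Clspn and 0.0828 for Uhrf1. Of 16 DNA repair genes, 4 were higher and 0 lower in microglia by edgeR, at a median of 0.52. Of 17 cycle control genes, 4 were higher and 1 lower (median 0.31). Of 13 tested cycle inhibitor and antiproliferative genes, 3 were higher and 0 lower (median 0.23). Of 13 tested histone and chromatin genes, 2 were higher and 0 lower (median 0.07). The 20 nucleotide and ribosome synthesis genes had 0 calls by edgeR (2 at an unadjusted p under 0.05, and 2 calls by DESeq2). Fibroblast markers summed to 1016 and 9.5 CPM in Ms4a3 cKO and 118 and 5696 CPM in Flox control among the cycling macrophages, and their part was not tested. The count of differing genes was 835, 554 and 749 without Ms4a3 cKO 1, Ms4a3 cKO 2 and Flox control 2.

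The step between non-cycling and cycling cells was then compared between microglia and macrophages in 1 fit. Of 13054 genes, 709 differed (5.43%), 484 with a positive (3.71%) and 225 with a negative difference (1.72%), where the difference is the log2 step in microglia minus that in macrophages and a step can itself be a fall. Of 40 mitosis genes 7 had a positive and 4 a negative difference, and of 36 S phase genes 3 and 2. Ncapg2, a condensin II subunit, stood at 184 and 183 CPM in the Ms4a3 cKO libraries and 139 and 177 CPM in the Flox control libraries in cycling microglia, against 29.3 and 35.1 CPM in the Ms4a3 cKO libraries and 22.2 and 37.5 CPM in the Flox control libraries in non-cycling microglia. In macrophages it stood at 192 and 181 CPM in the Ms4a3 cKO libraries and 109 and 185 CPM in the Flox control libraries in cycling cells, against 178 and 228 CPM in the Ms4a3 cKO libraries and 117 and 213 CPM in the Flox control libraries in non-cycling cells. The macrophage values overlapped between cycling and non-cycling cells, those of microglia did not, and the difference of steps was 2.77 in log2 (adjusted p = 2.79e-07). Without Ms4a3 cKO 1, Ms4a3 cKO 2 or Flox control 2 this comparison called 1 gene, and without Flox control 1 it called 2091.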

How the data were processed

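The authors deposited, per library, unnormalized UMI counts of 31253 genes in each barcode. The submitters' processing notes name fastp 0.24.0, STARsolo and the genome build mm10. STARsolo's version, its strand setting and the gene annotation were not given in the sources used. The library totals over kept barcodes were 76348139 and 82629426 UMIs in Ms4a3 cKO and 104449488 and 103980476 UMIs in Flox control, and the sums over cycling microglia were 6946337 and 10297276 UMIs in Ms4a3 cKO and 7620914 and 9015372 UMIs in Flox control.

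Groups came from the sample titles. The cells and the 32 gene lists were chosen with earlier results of these data known, so the lists give no independent support. Doublets were called per library with Scrublet (scanpy 1.11.5, expected rate 6%) and kept in the main result. Counts were summed per library and cell set and tested with edgeR 4.0.16 in R 4.3.3 (TMM, filterByExpr, quasi-likelihood F test, Benjamini-Hochberg adjustment over all genes tested, threshold 0.05), with DESeq2 1.42.0 as an alternative; the edgeR script was first tested on simulated data. Comparisons within a library had the library as a block. Single values were tested with exact permutations in scipy 1.17.1 under Python 3.11.15, and thinning drew 2000 UMIs per cell without replacement. Figures were drawn with matplotlib 3.10.9.

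Genes named were those of the gates, Htr2b and Ms4a3, the 12 largest changes per direction averaging 20 CPM or more with no overlap between the sides, the 5 smallest p where fewer than 5 passed, and the 4 smallest p per list (2 for genotype), in all cases without sex-linked, mitochondrial, Gm and Rik genes; those named beyond this are marked, and some genes that met the rule are not reported here. Alternatives were other tools, scalings, filters, gates, depths, doublets or macrophage-marked cells removed, and each library left out. Restricting to 8000 UMIs, applying both gates to thinned cells and taking library and class together as a block were not planned and were added later. Replicate numbers did not pair the libraries: same-numbered libraries had deviations from the group means that correlated at 0.058.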

Additional observations from a re-analysis of the deposited data

Results flagged for a closer look

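The step between non-cycling and cycling cells differed between microglia and macrophages at 709 genes, by a test of the difference itself. The 6 genes named here are among these 709. Genes were named from those that passed, so their passing adds no support. In log2, microglia minus macrophages, the difference was 2.77 for Ncapg2, 1.57 for E2f8, 1.65 for Cdc25b, -2.20 for Ube2c, -3.20 for Ckap2l and -1.92 for Klf4. Ncapg2 kept its call in all 8 alternatives; the other 5 lost it in 3 of 8, those without Ms4a3 cKO 1, Ms4a3 cKO 2 or Flox control 2, with a highest adjusted p of 0.145 for E2f8 and 0.188 for Klf4. A negative value can come from a deeper fall in microglia, as for Klf4, which had 78.6 and 72.7 CPM in Ms4a3 cKO and 55.0 and 108 CPM in Flox control cycling microglia, against 1043 and 429 CPM in Ms4a3 cKO and 192 and 466 CPM in Flox control non-cycling microglia. Ube2c and Ckap2l act in mitosis, and Cdc25b is a phosphatase that activates cyclin-dependent kinases. Cycling levels of E2f8, Cdc25b and Ckap2l overlapped between microglia and macrophages, and their non-cycling levels did not. In non-cycling cells E2f8 had 0.924 to 1.32 CPM in microglia and 1.42 to 3.45 CPM in macrophages. In the same order Cdc25b had 3.01 to 3.95 and 9.16 to 10.5 CPM, and Ckap2l 3.57 to 34.3 and 0.591 to 2.04 CPM. The macrophage side rests on 56 and 48 cycling cells in Ms4a3 cKO and 327 and 96 in Flox control. Groups of 2 libraries are too small to test for a single library far from the others.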

How the results depend on the processing

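The main numbers of genes between cycling and non-cycling microglia stayed within 1.5 times under 14 of 15 alternatives; with both gates on thinned cells 2735 genes passed, and leaving out 1 library gave 6160 to 7082. By genotype in cycling microglia, 0 genes became 132 with DESeq2, 767 with no filter on low counts, 6 after thinning before the cycle gate, 1 without macrophage-marked cells, 10 with both gates on thinned cells and 0 to 3015 without 1 library. The replicate number as a block gave 10 genes (2 higher, 8 lower), although the numbers do not pair the libraries. For the genotype effect between cell states, 0 became 29 with DESeq2, 401 with no filter, 18 after thinning, 1 without macrophage-marked cells, 5 with both gates on thinned cells and 3 to 88 without 1 library. Against cycling macrophages, leaving out 1 library gave 554 to 1640 genes. The difference of steps gave 1383 with DESeq2, 1076 without doublets, 1141 with library and class together as a block and 1 to 2091 without 1 library. The cause of these changes was not tested.

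The difference in cycling share turned to -0.43 points without macrophage-marked cells, -0.20 with both gates on thinned cells, and -1.51 to 2.27 without 1 library. The S phase to mitosis difference turned to -0.0074 after thinning and ranged from -0.065 to 0.14 without 1 library. Among values for named genes between cycling and non-cycling cells, 928 kept their direction and side of the threshold, 12 no longer passed and 5 changed sign: Pttg1 (0.13 with both gates thinned, 0.31 at 8000 UMIs), Igf1 (-0.21) and Fabp5 (-0.34) at 8000 UMIs, and Ifitm3 (0.24 with both gates thinned). Of the alternatives run, Igf1 and Fabp5 turned only at 8000 UMIs. With 2 libraries a genotype, effects of moderate size could not be resolved.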
